A study of Homo sapiens with 4 samples.

Results

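The AP-1 and immediate early genes described here are FOS, FOSB, FOSL1, FOSL2, JUN, JUNB, JUND, EGR1 and IER3. They were chosen by name, and all 9 had a row among the 35767 gene rows of the count table. Read counts came from 4 RNA sequencing libraries of SAS, an established human cell line from a squamous cell carcinoma of the tongue. In the first group, 2 libraries (replicates 1 and 2) were labelled as cells given an siRNA against NAT10, an RNA acetyltransferase. In the second, 2 libraries were labelled as cells given a control siRNA, with the genotype written as WT. The genotype label of siNAT10 replicate 2 reads NAT11 knockdown, while its title reads siNAT10, and the title was followed. The labels call the libraries biological replicates but name no separate cultures, so p-values measure no more than how far these libraries differ, and that spread may be technical. No dose, time after transfection or siRNA sequence was given in the sources used here.

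AP-1 is a dimer of basic leucine zipper proteins, usually 1 from the Jun family (JUN, JUNB, JUND) and 1 from the Fos family (FOS, FOSB, FOSL1, FOSL2), and it binds short DNA elements related to TGANTCA. Many of its genes are immediate early genes: growth factors, serum or stress raise their transcripts within minutes through MAP kinases, without new protein synthesis, and the transcripts are then lost quickly. In keratinocytes and squamous carcinomas AP-1 is known for its roles in differentiation, migration and the expression of matrix proteases. EGR1 is a zinc finger transcription factor, and IER3 is a small stress-induced protein that acts on ERK signalling and cell survival.

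The promoters of the 3 Jun genes and of EGR1 are shown to set the family whose members JUN and JUNB moved in opposite directions beside EGR1, a gene known for its serum response elements. Each is the plus or minus strand stretch of 250 bases that ends just before the RefSeq start site (GRCh38.p14), printed 5′ to 3′. Capitals mark matches to TGACNTCA, a cyclic AMP response or AP-1 type element, and to the CArG box, the element bound by serum response factor.
JUN, chr1:58784048-58784297, minus strand: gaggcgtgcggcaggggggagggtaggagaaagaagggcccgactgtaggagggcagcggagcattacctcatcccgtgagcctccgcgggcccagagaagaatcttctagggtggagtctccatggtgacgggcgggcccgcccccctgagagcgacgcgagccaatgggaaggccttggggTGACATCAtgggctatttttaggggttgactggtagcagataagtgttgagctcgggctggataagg
JUNB, chr19:12791236-12791485, plus strand: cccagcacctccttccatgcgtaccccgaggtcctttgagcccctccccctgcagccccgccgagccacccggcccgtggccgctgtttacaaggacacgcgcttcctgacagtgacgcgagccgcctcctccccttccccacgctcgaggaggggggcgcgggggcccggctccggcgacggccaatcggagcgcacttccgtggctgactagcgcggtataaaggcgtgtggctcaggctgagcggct
JUND, chr19:18281623-18281872, minus strand: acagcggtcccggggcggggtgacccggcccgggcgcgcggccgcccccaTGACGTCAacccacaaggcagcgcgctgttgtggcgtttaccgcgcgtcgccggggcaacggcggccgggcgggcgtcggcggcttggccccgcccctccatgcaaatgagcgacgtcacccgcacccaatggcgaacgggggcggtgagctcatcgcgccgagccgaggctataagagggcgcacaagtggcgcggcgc
EGR1, chr5:138465229-138465478, plus strand: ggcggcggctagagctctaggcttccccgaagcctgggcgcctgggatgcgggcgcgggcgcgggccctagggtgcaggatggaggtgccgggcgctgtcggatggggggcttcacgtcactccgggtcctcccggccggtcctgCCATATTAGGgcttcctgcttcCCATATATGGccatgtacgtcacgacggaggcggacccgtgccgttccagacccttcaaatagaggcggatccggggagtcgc

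Motifs were searched on both strands in the same window of the 7 members with an entry in the promoter table. FOSL1 and IER3 had none. JUN held TGACATCA at -67 to -60, counted from the start site, and JUND held TGACGTCA at -200 to -193. TGACNTCA, which includes TGACGTCA, had a match in 2 of the 7 members and in 6.87% of 35116 RefSeq promoter windows, and TGACGTCA itself was in 1.65% of them. JUNB had no match to any motif searched. EGR1 held 2 CArG boxes, CCATATTAGG at -105 to -96 and CCATATATGG at -83 to -74. A CArG box was found in 1.16% of all windows. The AP-1 heptamer TGANTCA (6.57% of all windows) and the EGR nonamer GCGGGGGCG (4.72%) had no match in any of the 7 windows. These matches are descriptions of the letters in a short window, and binding was not measured.

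The label check and the depth come first. NAT10 mRNA was at 253 and 248 CPM (counts relative to the TMM-scaled library size) in siNAT10 and at 240.4 and 231 CPM in siControl. On the log2 scale the fold change was 0.09 ± 0.06 (SE, edgeR quasi-likelihood adjusted p = 0.293), so the knockdown named by the labels was not visible in these counts. Higher and lower below therefore compare libraries by their labels, siNAT10 with siControl. NAA40, the gene also called NAT11, was at 18.6 and 18.2 CPM in siNAT10 and at 22.1 and 18.8 CPM in siControl. Its log2 fold change was -0.15 ± 0.10 (SE, edgeR adjusted p = 0.255). With library totals alone it was -0.26 and just passed the threshold (edgeR adjusted p = 0.049). Total counts ranged from 30794757 to 36341785 per library. Of 9 squamous epithelial markers in the table, 4 (KRT14, KRT17, SFN, EPCAM) reached 1 CPM of the library total in every library. KRT5, TP63, DSG3 and PKP1 stayed below 1 CPM in all of them, and CDH1 was at 0.747 to 1.33 CPM. Their summed level was 785 and 825 CPM in siNAT10 and 1132 and 1141 CPM in siControl, most of the gap being KRT17. The part of that shift in the results below was not tested. Summed markers lay between 29.4 and 38.8 CPM for fibroblasts (6 genes, chiefly COL1A1), between 51.8 and 54.7 CPM for leukocytes (4 genes, almost all CD68, with PTPRC at no more than 0.11 CPM) and between 2.64 and 3.60 CPM for endothelium (4 genes).

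The 9 genes moved in both directions. FOS, FOSL1, JUN and EGR1 were higher in the libraries labelled siNAT10, while FOSL2, JUNB and IER3 were lower, and FOSB and JUND did not pass the test. All 9 members passed the filter on low counts, and 7 of them were called, 4 higher and 3 lower, at an edgeR quasi-likelihood adjusted p below 0.05 over all genes tested. Of all 20098 genes tested, 40.4% were called, 19.7% higher and 20.7% lower. The CPM ranges of the groups did not overlap for any of the 9 members, 5 above and 4 below siControl. For FOSB this depended on the TMM scaling. Over all genes tested, 69.5% did not overlap, 34.1% above and 35.4% below. The median log2 fold change of the members was 0.24 and the median of its size was 0.52, against -0.0079 and 0.32 over all genes. No member changed as much as 2-fold. In bulk RNA, fewer cells that express a gene and less RNA per cell cannot be told apart.

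**Figure D1:**
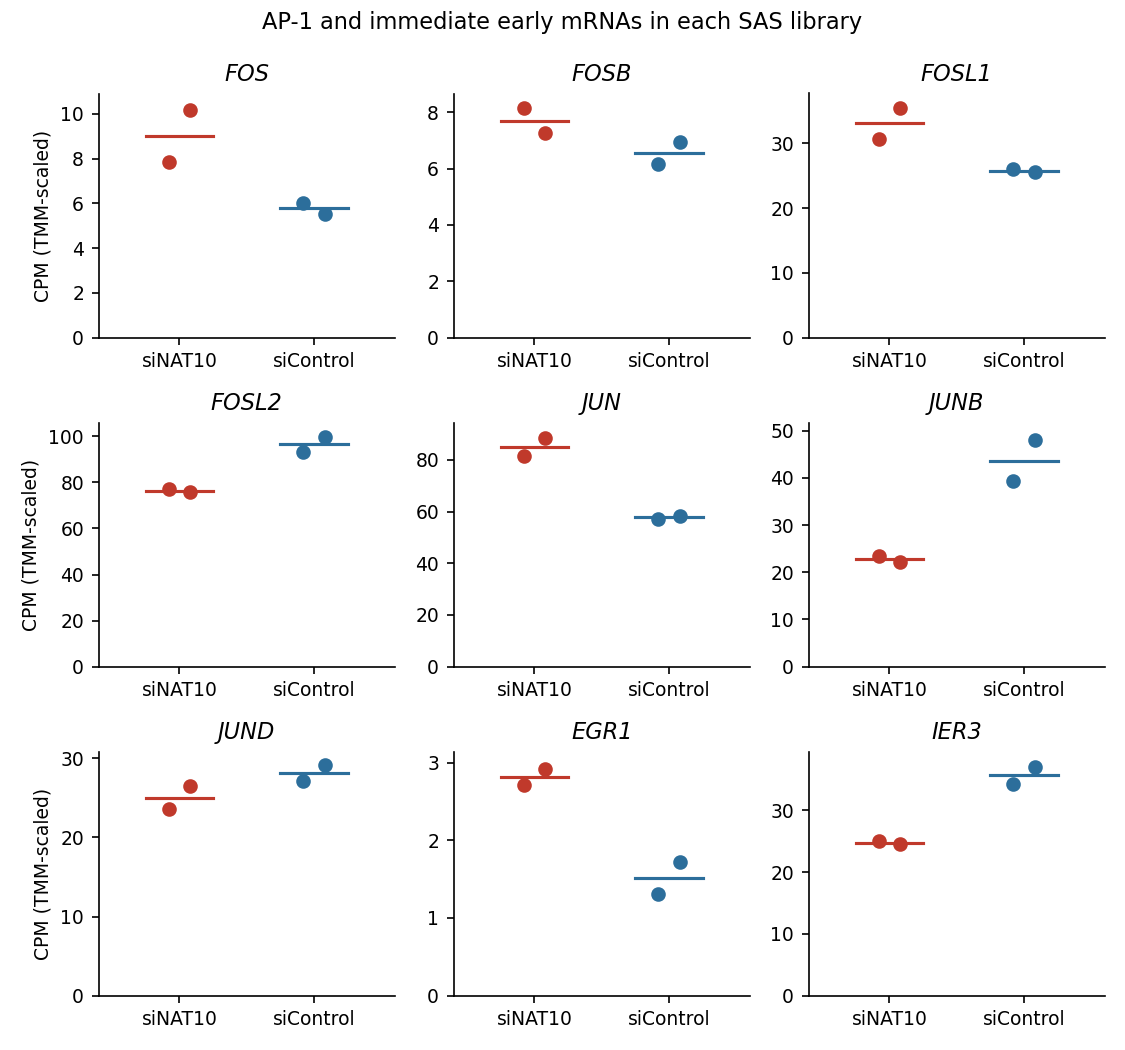
Level of each of the 9 mRNAs, in CPM on TMM-scaled library sizes (y axis from 0, a separate scale per gene), in the libraries labelled siNAT10 (red) and siControl (blue). Points are single libraries, with replicate 1 left of replicate 2, and lines are group means. JUNB lies at 23.4 and 22.1 CPM in siNAT10, below 39.3 and 48.0 CPM in siControl, while JUN lies at 81.4 and 88.4 CPM in siNAT10, above 57.0 and 58.5 CPM in siControl.

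Within the Jun family, JUN and JUNB went opposite ways. JUN, the founding AP-1 subunit, which can pair with itself and is known to activate its own gene, lies on chromosome 1 (58780788 to 58784327, minus strand, GRCh38). It was at 81.4 and 88.4 CPM in siNAT10, against 57.0 and 58.5 CPM in siControl. Both siNAT10 libraries were above both siControl libraries, and the gap was several times the spread within a group. JUN averaged 84.9 ± 4.99 CPM in siNAT10 and 57.8 ± 1.01 CPM in siControl (SD, n = 2 each), which was 1.47-fold higher. The log2 fold change was 0.56 ± 0.07 (SE, 95% interval 0.41 to 0.71, edgeR adjusted p = 4.21e-06), and the call was kept under all 15 alternative settings.

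JUNB, a Jun protein known to be a weaker activator than JUN and to counter it at some promoters, had the largest fall of the 9 genes. The gene lies on chromosome 19 (12791496 to 12793315, plus strand). It was at 23.4 and 22.1 CPM in siNAT10, against 39.3 and 48.0 CPM in siControl. The siControl libraries differed from each other by more than the siNAT10 libraries did, yet both stood well above the siNAT10 libraries. The mean was 22.7 ± 0.910 CPM in siNAT10 and 43.6 ± 6.13 CPM in siControl (SD, n = 2 each), a 1.92-fold lower level. The log2 fold change was -0.94 ± 0.10 (SE, 95% interval -1.14 to -0.74, edgeR adjusted p = 2.60e-07), and the call was kept under the 14 settings that tested the gene.

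The exons of JUNB share 259 of their 1820 bases with HOOK2, which encodes a linker of microtubules on the opposite strand. HOOK2 was at 38.3 and 34.9 CPM in siNAT10, against 71.7 and 71.0 CPM in siControl, with a log2 fold change of -0.96 ± 0.08 (SE, edgeR adjusted p = 7.19e-09). Both rows therefore fell by similar amounts. The strand setting of the counting is not given in the sources used here. Reads from the shared bases may count for both rows, for neither, or only for the row of their own strand. Their part in the JUNB value was not tested.

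JUND, the Jun protein that is expressed most evenly in resting cells and is known to slow growth in mouse fibroblasts, lies on chromosome 19 (18279760 to 18281622, minus strand). It was at 23.5 and 26.4 CPM in siNAT10, against 27.1 and 29.1 CPM in siControl. The groups did not overlap, but siNAT10 replicate 2 lay close to siControl replicate 1. The log2 fold change was -0.17 ± 0.09 (SE, 95% interval -0.36 to 0.021, edgeR adjusted p = 0.15). With libraries scaled by their totals alone, where the median of all genes moved to -0.12, JUND passed the threshold (-0.28, adjusted p = 0.0177, range over 15 alternatives 0.0177 to 0.845).

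The make-up of the Jun family transcripts shifted from JUNB towards JUN. For levels between genes, counts were scaled by gene length to TPM, in which each library has the same total. JUN made up 47.4% and 48.7% of Jun family TPM in siNAT10, against 30.8% and 28.2% in siControl. JUNB made up 26.5% and 23.7% in siNAT10, against 41.3% and 45.1% in siControl. The share of JUND was 26.1% and 27.6% in siNAT10 and 27.8% and 26.7% in siControl, and these ranges overlapped. The ratio of JUN to JUNB was 1.79 and 2.06 in siNAT10 and 0.746 and 0.627 in siControl, so by length-scaled level JUN was the more abundant of the pair in both siNAT10 libraries and JUNB in both siControl libraries. By counts without length scaling JUN exceeded JUNB in all 4 libraries, with 2816 and 2610 against 809 and 652 counts in siNAT10 and 2172 and 2170 against 1496 and 1780 counts in siControl. Summed over the family, the level was 140.0 and 143 TPM in siNAT10 and 172 and 187 TPM in siControl. That gap includes the difference in scaling, and the sums were not computed on TMM-scaled sizes. Each of these differences without overlap had a two-sided exact permutation p of 0.333, the smallest that 2 libraries against 2 can give.

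**Figure D2:**
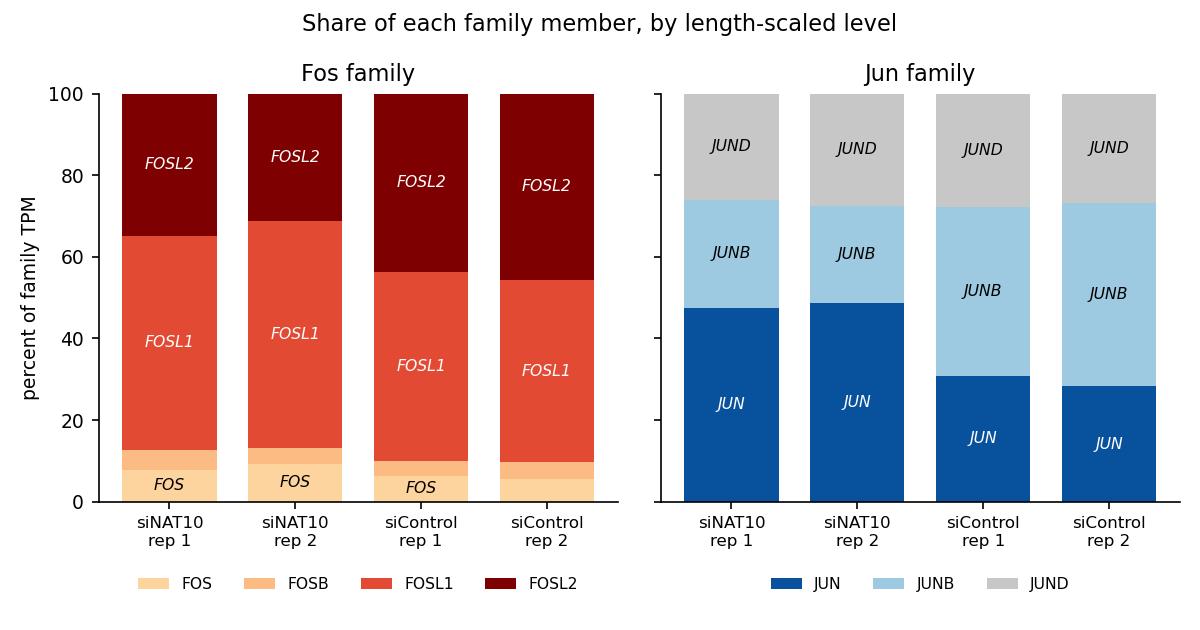
Share of each gene in the summed TPM of its family, in percent, for every library (bars, 0 to 100). In the Jun panel the share of JUN is 47.4% and 48.7% in siNAT10 and 30.8% and 28.2% in siControl. In the Fos panel the share of FOSL1 is 52.6% and 55.5% in siNAT10 and 46.4% and 44.4% in siControl.

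In the Fos family, FOS and FOSL1 rose and FOSL2 fell. FOS, the classical immediate early gene, whose protein carries strong activation domains and must pair with a Jun protein, lies on chromosome 14 (75278774 to 75282230, plus strand). It was at 7.86 and 10.2 CPM in siNAT10, from 272 and 300 counts, against 6.04 and 5.55 CPM in siControl, from 230 and 206 counts. Both siNAT10 libraries were higher, replicate 2 more so than replicate 1. The mean was 9.01 ± 1.63 CPM in siNAT10 and 5.79 ± 0.347 CPM in siControl (SD, n = 2 each), which was 1.55-fold higher. The log2 fold change was 0.63 ± 0.15 (SE, 95% interval 0.32 to 0.95, edgeR adjusted p = 0.00229). Without siNAT10 replicate 2 it was 0.44 and missed the threshold (adjusted p = 0.0592, range over 15 alternatives 1.12e-04 to 0.0592).

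FOSB, a close relative of FOS, lies on chromosome 19 (45467995 to 45475179, plus strand). It was at 8.15 and 7.25 CPM in siNAT10, against 6.15 and 6.95 CPM in siControl. The libraries nearest to each other, siNAT10 replicate 2 and siControl replicate 2, were closer together than the replicates within a group. In TPM the ranges overlapped, at 4.24 and 3.64 in siNAT10 and 3.63 and 4.01 in siControl. The log2 fold change of FOSB was 0.24 ± 0.14 (SE, 95% interval -0.061 to 0.53, edgeR adjusted p = 0.2). FOSB was called under none of the 15 alternative settings (adjusted p 0.136 to 0.594).

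FOSL1 encodes FRA1, a Fos protein without the C-terminal activation domain of FOS, known to be high in invasive carcinoma cells. It lies on chromosome 11 (65892049 to 65900573, minus strand). FOSL1 was at 30.7 and 35.4 CPM in siNAT10, against 26.1 and 25.5 CPM in siControl. The siControl libraries lay close together and below both siNAT10 libraries. The rise was 1.28-fold, with a log2 fold change of 0.36 ± 0.09 (SE, 95% interval 0.17 to 0.55, edgeR adjusted p = 0.00385). It missed the threshold without siNAT10 replicate 2 (0.25, adjusted p = 0.0919) and when tested against a change of at least 1.2-fold (adjusted p = 0.172), the extremes over 15 alternatives being 6.74e-04 and 0.172.

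FOSL2 encodes FRA2, the other Fos protein of this kind, and lies on chromosome 2 (28392448 to 28417312, plus strand). It was at 77.1 and 75.8 CPM in siNAT10, against 93.2 and 99.7 CPM in siControl. Both siNAT10 libraries were lower, and their spread was small. The level was 1.26-fold lower, with a log2 fold change of -0.34 ± 0.07 (SE, 95% interval -0.48 to -0.19, edgeR adjusted p = 6.41e-04). Against a change of at least 1.2-fold it was not called (adjusted p = 0.167, range over 15 alternatives 2.64e-06 to 0.167).

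By length-scaled level, FOSL1 and FOSL2 made up most of the Fos family in every library, and the opposite changes altered their balance. FOSL1 was 52.6% and 55.5% of Fos family TPM in siNAT10, against 46.4% and 44.4% in siControl. FOSL2 was 34.8% and 31.3% in siNAT10, against 43.7% and 45.8% in siControl. The ratio of FOSL1 to FOSL2 was thus 1.51 and 1.77 in siNAT10 and 1.06 and 0.97 in siControl. By counts without length scaling FOSL2 exceeded FOSL1 in every library. In siNAT10 FOSL2 had 2669 and 2236 counts, against 1064 and 1045 for FOSL1. In siControl FOSL2 had 3549 and 3702 counts, against 994 and 947 for FOSL1. FOS was 7.84% and 9.29% of the family in siNAT10 and 6.25% and 5.63% in siControl, and FOSB stayed between 3.71% and 4.74% with overlapping ranges. The family sum was 89.5 and 94.1 TPM in siNAT10 and 97.9 and 97.3 TPM in siControl. This small gap depends on the scaling, as TPM carries no TMM factor, so no direction is read from it. The exact permutation p was again 0.333 for each difference without overlap.

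EGR1 and IER3, immediate early genes outside AP-1, moved in opposite directions. EGR1, known to be induced by serum through CArG boxes, lies on chromosome 5 (138465490 to 138469315, plus strand) and was the scarcest member. It had 94 and 86 counts in siNAT10, against 50 and 64 counts in siControl. That was 2.72 and 2.91 CPM in siNAT10 and 1.31 and 1.72 CPM in siControl. The siNAT10 libraries were both higher, at a depth where a difference of a few counts matters. The level was 1.85-fold higher, with a log2 fold change of 0.89 ± 0.24 (SE, 95% interval 0.38 to 1.4, edgeR adjusted p = 0.0064), the widest interval of the 9. Without siControl replicate 1 it was 0.70 and just missed the threshold (adjusted p = 0.0572, range over 15 alternatives 0.0021 to 0.0572).

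IER3 lies on chromosome 6 (30743199 to 30744554, minus strand). It was at 25.03 and 24.5 CPM in siNAT10, against 34.3 and 37.0 CPM in siControl. The siNAT10 libraries were nearly equal and both below siControl. The level was 1.44-fold lower, with a log2 fold change of -0.52 ± 0.09 (SE, 95% interval -0.70 to -0.34, edgeR adjusted p = 6.86e-05), and the call was kept under the 14 settings that tested the gene. Its exons share 359 of 1356 bases with the opposite-strand row XXbac-BPG252P9.10, which was at 9.33 and 8.44 CPM in siNAT10 and 11.5 and 11.0 CPM in siControl (log2 fold change -0.34 ± 0.12, edgeR adjusted p = 0.0345). That call was lost in 5 of 14 alternatives, among them DESeq2 (adjusted p = 0.124) and leaving out siNAT10 replicate 2 (0.204) or siControl replicate 1 (0.118), with a range of 0.0067 to 0.291. The part of that row in the IER3 value was not tested.

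**Figure D3:**
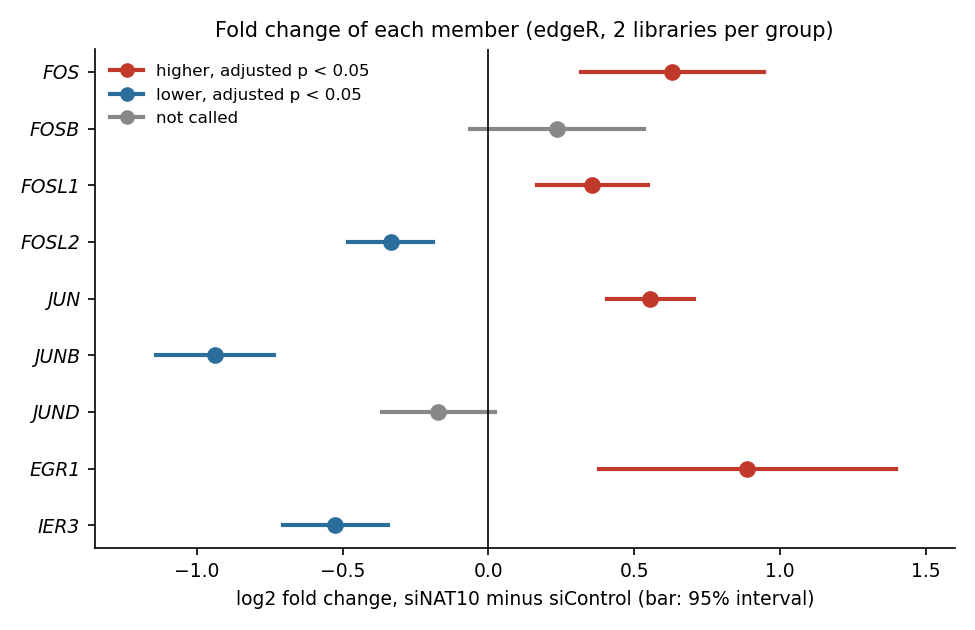
Log2 fold change of each member, siNAT10 minus siControl, with its 95% interval from the edgeR fit (2 libraries per group). FOS, FOSL1, JUN and EGR1 lie right of 0, FOSL2, JUNB and IER3 lie left of it, and the intervals of FOSB (-0.061 to 0.53) and JUND (-0.36 to 0.021) include it.

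The order of the 9 genes by length-scaled level differed between the groups. In siNAT10, JUN was highest at 66.4 and 69.6 TPM, followed by IER3 at 53.3 and 50.4 TPM and FOSL1 at 47.1 and 52.3 TPM, whose ranges overlapped. JUND (36.5 and 39.5 TPM) and JUNB (37.1 and 33.8 TPM) overlapped too, and FOSL2 (31.1 and 29.5 TPM) came next. In siControl, IER3 was highest at 83.0 and 87.3 TPM, and it overlapped with JUNB at 70.9 and 84.3 TPM. JUN (52.9 and 52.8 TPM) and JUND (47.8 and 49.97 TPM) followed, and FOSL1 (45.4 and 43.3 TPM) and FOSL2 (42.7 and 44.6 TPM) overlapped. FOS, FOSB and EGR1 were the lowest in both groups, at 8.74 TPM or less. TPM carries no TMM factor, so these levels give the order within a library. The fold changes above compare the groups.

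Other basic leucine zipper genes that pair with or resemble AP-1 were called in 1 direction. Of 15 tested (17 in the table), 9 were lower and none higher, with a median log2 fold change of -0.58, against 20.7% and 19.7% of all genes called lower and higher. DESeq2 also gave no higher gene and 9 lower, against 3167 higher and 3089 lower of all 20098 genes. At an unadjusted p below 0.05 none was higher and 10 lower, with no share over all genes computed. Without rows that overlap another, which leaves fewer genes in the fit, 4 were lower, as were 2040 of the 9865 genes tested there. The listed genes left in that fit were not counted, so no share of the list is given. The small Maf genes MAFK (overlapping another row) and MAFG (overlapping 2 rows), whose proteins lack an activation domain, fell by 0.58 on the log2 scale each. ATF1, a CREB relative, was at 53.5 and 54.0 CPM in siNAT10 and 78.4 and 86.5 CPM in siControl (-0.62 ± 0.07, edgeR adjusted p = 1.50e-06). ATF3, an immediate early stress factor that pairs with Jun proteins, was at 48.4 and 47.1 CPM in siNAT10 and 67.9 and 65.9 CPM in siControl (-0.49 ± 0.07, adjusted p = 2.04e-05).

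Of 31 other immediate early genes tested, 7 were higher and 13 lower, with a median log2 fold change of -0.22, beside 19.7% higher and 20.7% lower over all genes. The higher calls were thus near the share over all genes. The matricellular genes CYR61 and CTGF (the second overlapping another row) had the largest rises in the list, with log2 fold changes of 2.88 and 2.92. The kinase genes SGK1 (on average 30.7 CPM in siNAT10 and 13.4 CPM in siControl) and PLK2 (34.2 CPM in siNAT10 and 14.7 CPM in siControl) rose by 1.197 and 1.22 on the log2 scale. NR4A1, an orphan nuclear receptor that overlaps another row, was at 26.7 and 26.9 CPM in siNAT10 and 54.3 and 55.3 CPM in siControl (-1.03 ± 0.08, edgeR adjusted p = 4.37e-09). IER2, a serum-induced nuclear protein whose row also overlaps another, stood at -0.65 on the log2 scale, and BTG2, an antiproliferative gene, at -0.66, both called lower.

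The serum response factor SRF itself, which acts through CArG boxes, was at 38.7 and 39.0 CPM in siNAT10 and 25.1 and 27.3 CPM in siControl, with a log2 fold change of 0.57 ± 0.08 (SE, edgeR adjusted p = 2.30e-05). Of its 8 tested partners and relatives, SRF included, 2 were higher and 1 lower, near the 19.7% and 20.7% over all genes, and 1 was higher and 0 lower without overlapping rows. Its actin-regulated coactivators differed, MKL1 at 0.46 ± 0.10 and MKL2 at -0.60 ± 0.09 on the log2 scale, each with an overlapping row. Neither NAB1 (-0.19, edgeR adjusted p = 0.0577) nor NAB2 (-0.046, adjusted p = 0.717), the corepressors of EGR1, was called by edgeR or DESeq2. At an unadjusted p below 0.05, 1 of the 2 was lower, and NAB1 passed the threshold under 3 of the 15 alternatives, library totals alone among them.

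Among 27 tested kinases that act upstream of AP-1, 5 were higher and 6 lower, with a median log2 fold change of -0.04, close to the 19.7% and 20.7% of all genes called higher and lower. The p38 activators differed in direction: MAP2K3 was at 20.7 and 19.9 CPM in siNAT10 and 12.1 and 12.7 CPM in siControl (0.71 ± 0.10, edgeR adjusted p = 1.48e-05), while MAP2K6 was at 3.67 and 3.25 CPM in siNAT10 and 8.19 and 8.32 CPM in siControl (-1.25 ± 0.15, adjusted p = 2.69e-06). In the ERK cascade ARAF and MAP2K1, both with overlapping rows, rose by 0.40 and 0.38 on the log2 scale. Against a change of at least 1.2-fold neither was called (edgeR adjusted p = 0.0679 for ARAF, with a range over 14 alternatives of 2.29e-05 to 0.0679, and 0.104 for MAP2K1, with a range of 9.46e-13 to 0.104), and MAP2K1 was at 0.22 without siControl replicate 1 and 0.57 without siControl replicate 2. RPS6KA3 and RPS6KA5, kinases activated by ERK or p38, were called lower, at -0.55 and -0.71 on that scale, the second with an overlapping row. RPS6KA2, of the same family and also with an overlapping row, stood at -3.40 (edgeR adjusted p = 1.18e-06). It was scarce, at 0.116 and 0.373 CPM in siNAT10 and 2.52 and 2.53 CPM in siControl. The list had 10 lower calls with library totals alone, where lower calls over all 20098 genes also rose, from 4169 to 5604. Against a change of at least 1.2-fold it had 1 higher call, beside 1961 over all genes. Without overlapping rows 2 were higher and 3 lower, beside 1894 and 2040 of the 9865 genes tested there. How many of the listed kinases stayed in that fit was not counted.

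Of 10 MAP kinase phosphatases, 1 was higher and 4 lower, with a median log2 fold change of -0.19, beside 19.7% higher and 20.7% lower over all genes. Against a change of at least 1.2-fold none was higher and 2 were lower, beside 1961 and 2485 of all 20098 genes. The list had 2 higher calls without siNAT10 replicate 1 and 0 without siNAT10 replicate 2. The higher one, DUSP7, was not called by DESeq2 (adjusted p = 0.0564, range over 15 alternatives 0.00681 to 0.0644). DUSP4, a nuclear phosphatase of ERK, was at 27.2 and 27.0 CPM in siNAT10 and 57.0 and 57.0 CPM in siControl (-1.07 ± 0.08, edgeR adjusted p = 2.22e-09). DUSP1, itself an immediate early gene, was at 34.9 and 29.8 CPM in siNAT10 and 35.4 and 48.3 CPM in siControl. Its log2 fold change of -0.37 ± 0.13 (edgeR adjusted p = 0.0406) was -0.13 without siControl replicate 2 (adjusted p = 0.337), and it was also lost without siNAT10 replicate 2 (-0.26, adjusted p = 0.222) and in DESeq2 (adjusted p = 0.274). The range over 15 alternatives was 6.89e-09 to 0.337.

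Genes for factors that act on AP-1 mRNA or protein were called in both directions, with small changes. Of 14 genes for the decay or stability of AU-rich mRNAs, a class that includes FOS mRNA, 4 were higher and 1 lower, beside 19.7% and 20.7% of all genes, and none was called either way against a change of at least 1.2-fold. The list had 2 lower calls without siNAT10 replicate 2 and 0 without siControl replicate 1. KHSRP, a decay factor, rose by 0.33 ± 0.06 on the log2 scale (edgeR adjusted p = 2.96e-04). The other higher calls were HNRNPD, TIAL1 and ELAVL1, at 0.29, 0.35 and 0.33 on that scale. HNRNPD and ELAVL1 each overlap another row, and ELAVL1 was not called with library totals alone (edgeR adjusted p = 0.0868). ZFP36L2, a relative of tristetraprolin, fell by 0.43 on that scale (edgeR adjusted p = 0.00989). The ZFP36L2 call was lost without siControl replicate 1 (-0.29, adjusted p = 0.131, range over 15 alternatives 8.31e-04 to 0.131). Among ubiquitin ligase factors known to act on Jun family proteins, CUL4A and DDB1 rose by 0.28 and 0.26 on the log2 scale (edgeR adjusted p = 0.00128 and 0.0029). Each has an overlapping row, and DDB1 was not called with library totals alone (adjusted p = 0.0671). Of the 7 such factors, 2 were higher and 3 lower, beside the same shares over all genes. Without siNAT10 replicate 2 this was 1 higher and 0 lower, without siControl replicate 1 it was 1 lower, and against a change of at least 1.2-fold none was called. RFWD2 (COP1), a ligase component for JUN, stood at -0.34 ± 0.09 on the log2 scale (SE, edgeR adjusted p = 0.00559), which missed the threshold without siNAT10 replicate 2 (-0.23, adjusted p = 0.128, range over 15 alternatives 6.07e-04 to 0.209).

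Genes reported as AP-1 targets went both ways. Of 28 tested (33 in the table), 8 were higher and 14 lower, with a median log2 fold change of -0.32, beside 19.7% higher and 20.7% lower over all genes. Without overlapping rows, which leaves fewer genes in the fit, 9 were lower, as were 2040 of the 9865 genes tested there. The integrin gene ITGA2 was at 14.8 and 15.99 CPM in siNAT10 and 56.0 and 52.9 CPM in siControl (-1.82 ± 0.09, edgeR adjusted p = 7.19e-12). The EGFR ligand gene AREG, the laminin chain gene LAMA3 and the integrin gene ITGB4 were called lower, at -1.30, -1.46 and -0.73 on the log2 scale. MT2A, a metallothionein, was at 85.5 and 85.0 CPM in siNAT10 and 52.6 and 55.6 CPM in siControl (0.66 ± 0.07, adjusted p = 4.02e-07). HMGA1, a chromatin protein, and AXL, a receptor tyrosine kinase with an overlapping row, rose by 0.48 and 0.44. The members are not replicates of each other, and no test was made of these lists as sets.

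**Figure D4:**
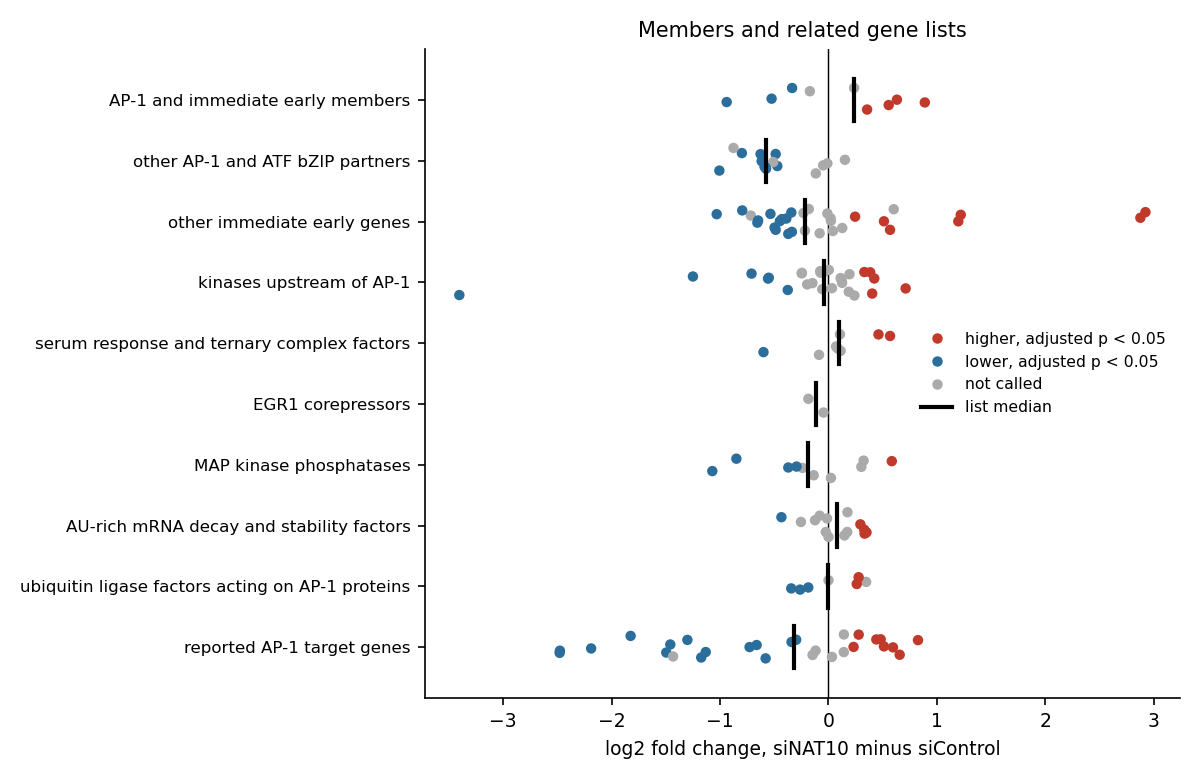
Log2 fold change, siNAT10 minus siControl, of each tested gene in the 9 members and in 9 related lists. Points are genes, coloured by the edgeR call (adjusted p below 0.05), with a vertical bar at the list median and a random vertical offset for legibility. The other bZIP genes have no call to the right of 0 and a median of -0.58, while the other lists, except the 2 EGR1 corepressors (none called), have calls on both sides.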

How the data were processed

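RNA was measured in 4 libraries of SAS cells. The authors deposited a table of unnormalized counts per gene. The submitters' processing notes name STAR 2.5.3a, fastp 0.23.4, featureCounts and the GRCh38 build. The sources used here do not give the annotation, the strand setting or the use of molecular identifiers. Between 72.0% and 73.5% of counts from 1 to 50 were even, as counting both mates of a pair would give.

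Counts were tested in R 4.3.3 with edgeR 4.0.16 (filterByExpr by group, TMM factors, robust glmQLFit, glmQLFTest, group only, two-sided). P-values were adjusted by Benjamini-Hochberg over the 20098 genes that passed the filter, and genes below 0.05 were called. The SE is the log2 fold change divided by the square root of F. The code was tested on simulated data. TPM used the deposited gene length and all rows. A floor of 3 counts is 0.0825 to 0.0974 CPM, and intervals do not cover PCR copies. Replicates differed beyond sampling noise (chi-square per degree of freedom 3.84 in siNAT10 and 6.07 in siControl).

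Members and lists were chosen with earlier results of these data known. All members are described, and of each list up to 4 called genes per direction with the smallest adjusted p could be named. HOOK2 and XXbac-BPG252P9.10 were added as overlapping rows. Alternatives included other scalings, filters, DESeq2 1.42.0, halved counts and leaving out each library.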

Additional observations from a re-analysis of the deposited data

How the results depend on the processing

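The 7 calls among the 9 members were recomputed under 15 settings, and none of the 7 changed direction. Leaving out 1 library gave 5 to 7 called members, and 2 to 4 higher ones, the lowest without siNAT10 replicate 2. Without rows that overlap another, JUNB and IER3 were not in the fit and 1 member was called lower. Over all genes, that setting called 3934 genes (1894 higher, 2040 lower) of 9865 tested, and a test against a change of at least 1.2-fold called 4446 (1961 higher, 2485 lower). Library totals alone gave 2688 higher and 5604 lower genes, against 3951 and 4169, with the median gene at -0.12 on the log2 scale, and NAT10 turned to -0.024 (adjusted p = 0.798). With the replicate number as a block, 7 members and 8254 genes were called. The numbers were not used as pairs, since same-numbered libraries did not deviate together (correlation -0.026 across genes). Without length scaling, the difference between the groups in the ratio of JUN to JUNB was 2.41 in place of 1.24. For the ratio of FOSL1 to FOSL2 it was 0.17 in place of 0.63. Leaving out gene length multiplies a ratio by the same constant in every library. The directions therefore could not change, and their agreement is no check. Counts near 50, as for EGR1, limit the precision of the scarce members.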
